A study of Mus musculus with 10 samples.

Results

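The genes described here are 10 of the 54532 genes counted in the series, and they belong to the antioxidant defence of the cell. They were chosen by name as the transcription factor NRF2 (gene Nfe2l2), its inhibitor KEAP1 (Keap1), and enzymes that remove reactive oxygen or its products (Hmox1, Nqo1, Gclc, Gclm, Txnrd1, Sod1, Sod2 and Gpx3). The choice rested on their link to reactive oxygen that forms when succinate is oxidized.

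Kidneys were taken from male C57BL/6 mice whose left ureter had been tied at 8 weeks of age (unilateral ureteral obstruction, UUO), 14 days after the surgery. DMM, dimethyl malonate, is an ester that releases malonate, an inhibitor of succinate dehydrogenase, and 5 mice received it by intraperitoneal injection at 40 mg/kg every other day. The control group was made up of 5 mice with the same obstruction that were given PBS, and kidneys without obstruction were not analysed here. A single RNA library was made from each kidney, with a total count between 15722527 and 19475833 reads. The libraries are called PBS1 to PBS5 and DMM1 to DMM5 after their replicate numbers. The comparison asks whether the RNA of these genes differed between obstructed kidneys with and without the inhibitor.

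NRF2 is held at a low level by KEAP1, which binds it and marks it for degradation through a cullin ubiquitin ligase. When oxidants or electrophiles modify cysteines of KEAP1, NRF2 escapes, pairs with a small MAF protein and binds antioxidant response elements at genes for glutathione synthesis, quinone reduction, heme breakdown and thioredoxin reduction. The proximal tubule of the kidney is rich in mitochondria, which release superoxide, and it is a main source of the glutathione peroxidase of blood plasma.

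The kidney origin of the libraries was visible in their markers. The most abundant proximal tubule marker was Kap, at a mean of 2269.8 CPM, and the most abundant marker of the loop, distal tubule and collecting duct was Umod, at 2399 CPM. CPM is a count per 1000000 reads of the library, whose size was scaled by TMM. No marker of any list was at 0 in every library.

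Of the 10 libraries, 3 stood apart from the rest of their group. DMM4 had a count on 20029 genes, against 22898 to 24083 in the other libraries, and its TMM factor was 0.852, against 0.981 to 1.05. On the first principal component of the 500 most variable genes, which held 47.9% of their variance, DMM4 was at 47.2 and the others between -22.9 and 15.8. PBS3 and DMM1 had a weight of 0 in the group means that the authors deposited, in which the other 8 libraries entered with the inverse of their size factors. No reason for this is given in the sources used here. DMM1 had 4095 CPM of summed interferon response markers, within the PBS range of 3289.7 to 5314 CPM, while DMM2 to DMM5 had 476 to 646 CPM. PBS3 had 9759.7 CPM of summed proximal tubule markers, against 1448 to 3807 CPM in the other PBS kidneys. The results of the 10 antioxidant genes are therefore given over all 10 libraries and over the 8 libraries without PBS3 and DMM1, those of other genes and lists over either or both sets, and for the 10 antioxidant genes the part of DMM4 is given where it decided a call.

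With all 10 libraries, none of the 10 genes was called different between DMM and PBS kidneys. With the 8 libraries, Gclc, Gclm, Nqo1 and Sod2 were called higher in DMM kidneys, by 1.62-fold to 2.71-fold. Keap1 was lower there by less than the fold change a call required, and Nfe2l2, Hmox1 and Txnrd1 had log2 fold changes between -0.24 and 0.18. Gpx3 and Sod1 had higher means in DMM kidneys and a wide spread, with DMM4 below every PBS kidney for both.

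A call required a fold change above 1.5 and a Benjamini-Hochberg adjusted p under 0.05 in edgeR's quasi-likelihood F test over all tested genes. All 10 members passed the filter on low counts in both sets of libraries. Over all 10 libraries, 0 of 16505 tested genes were called higher (0.0%) and 0 lower (0.0%) by edgeR, and DESeq2 called 9 higher and 32 lower, none of them a member. At an unadjusted p under 0.05 and the same fold change, edgeR had 315 genes higher (1.91%) and 678 lower (4.11%), among which 2 members, Gclc and Nqo1, were higher and 0 were lower. Within the 8 libraries, 452 of 16550 tested genes were called higher (2.73%) and 590 lower (3.56%), and the members were 4 higher and 0 lower. For each of these 4 genes PBS3 was the highest of the PBS kidneys and DMM1 the lowest of the DMM kidneys, so that leaving both out widened each difference. Scaling by library size alone gave 276 higher and 700 lower there and moved the median log2 fold change of all genes from 0.02 to -0.09. The median log2 fold change of the 10 members was 0.31 over all 10 libraries, beside 0.02 for all tested genes, and 0.57 over the 8 libraries, again beside 0.02.

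In all 10 libraries, the groups overlapped for every member, whereas 131 of the tested genes were without overlap and higher in DMM (0.794%) and 191 without overlap and lower (1.16%). In the 8 libraries, the 4 called members had every DMM kidney above every PBS kidney, as had 1564 tested genes (9.45%). Keap1 had every DMM kidney below every PBS kidney, as had 1759 tested genes (10.6%).

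**Figure D1:**
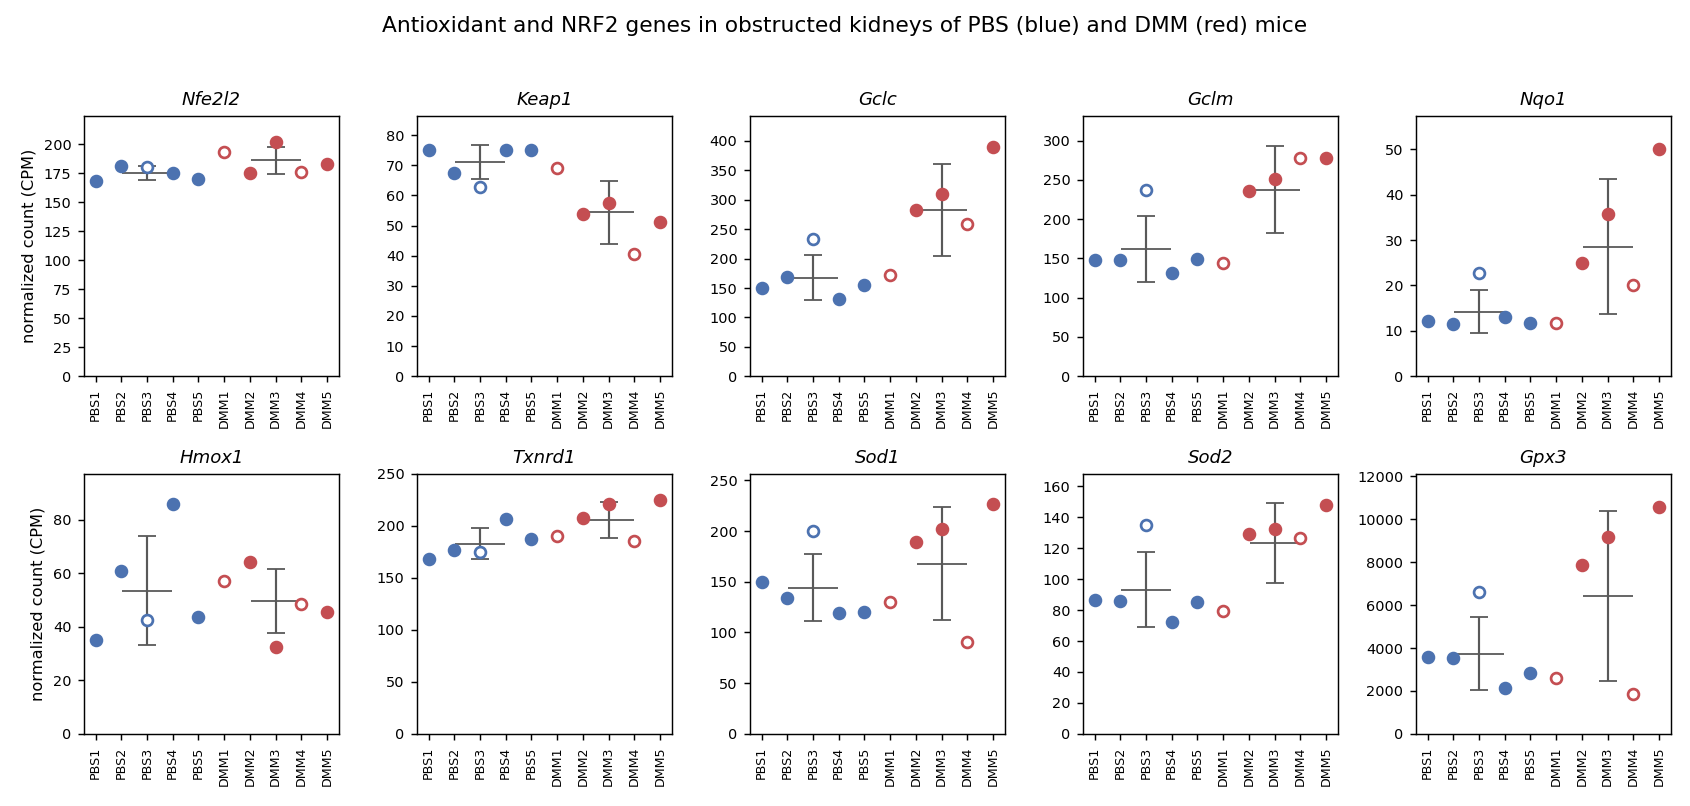
Normalized counts (CPM with TMM scaling, axis from 0) of the 10 genes in each library, with PBS kidneys in blue and DMM kidneys in red. Open circles are PBS3, DMM1 and DMM4, and grey bars are the mean and SD of all 5 kidneys of a group. PBS3 at 237 CPM and DMM1 at 144 CPM of Gclm lie with the other group, and DMM4 is the lowest library for Keap1, Sod1 and Gpx3.

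**Figure D2:**
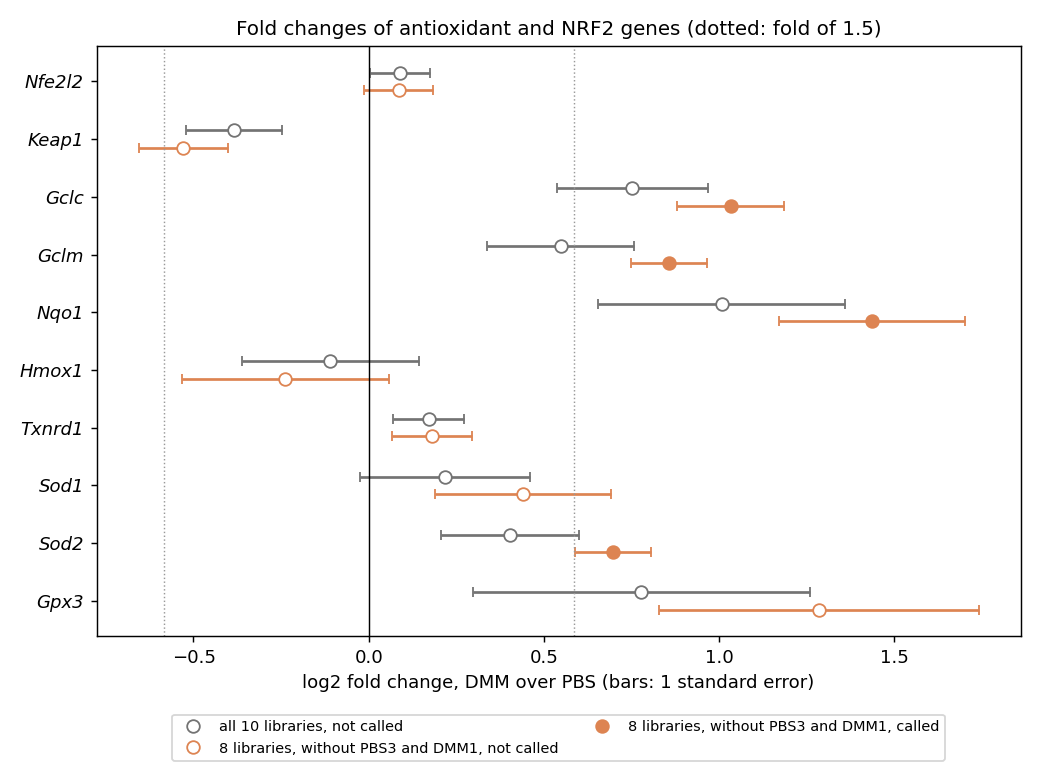
Log2 fold change of DMM over PBS kidneys for each gene over all 10 libraries (grey) and over the 8 libraries without PBS3 and DMM1 (orange), with bars of 1 standard error from edgeR and dotted lines at a fold change of 1.5. Filled circles are called genes, which are Gclc, Gclm, Nqo1 and Sod2 over the 8 libraries, between 0.70 and 1.44.

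Nfe2l2 encodes NRF2 and lies on chromosome 2 from 75675513 to 75704641 in mm10, on the minus strand. It was at 168, 181, 180.4, 175 and 169.6 CPM in PBS1 to PBS5 and at 193, 175, 202, 176 and 183 CPM in DMM1 to DMM5. The groups overlapped, and no kidney stood apart. Means were 175 ± 6.12 CPM with PBS and 186 ± 11.7 CPM with DMM (SD, n = 5 each), for a log2 fold change of 0.09 with a standard error of 0.086 (edgeR, adjusted p = 0.685). Across the 8 libraries the log2 fold change was again 0.09 (edgeR, adjusted p = 0.666), and it turned to -0.03 when counts were scaled by library size alone. These values are RNA levels, whereas KEAP1 acts on the NRF2 protein, which was not measured here.

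Keap1, the adaptor that presents NRF2 to the ligase, lies on chromosome 9 from 21229730 to 21239361 on the minus strand. Its values were 75.1, 67.6, 62.6, 74.9 and 74.9 CPM in PBS1 to PBS5 and 69.3, 53.7, 57.5, 40.4 and 51.2 CPM in DMM1 to DMM5. DMM2 to DMM5 were all below the lowest PBS kidney, PBS3, while DMM1 lay among the PBS kidneys. Means were 71.0 ± 5.69 CPM with PBS and 54.4 ± 10.4 CPM with DMM (SD, n = 5 each), for a log2 fold change of -0.38 with a standard error of 0.14 (edgeR, adjusted p = 0.387). In the 8 libraries it was 73.1 ± 3.71 against 50.7 ± 7.32 CPM (SD, n = 4 each), a log2 fold change of -0.53 (standard error 0.13). Its adjusted p of 0.0406 (edgeR) was under 0.05 there, as for 662 genes lower in DMM without a fold change minimum (4.0%), but the fold change of 0.693 fell short of a call. With library size alone its log2 fold change was -0.63 (edgeR, adjusted p = 0.0483), which is a call. With TMM the adjusted p rested on each of the libraries other than DMM4: when PBS1, PBS2, PBS4, PBS5, DMM2, DMM3 or DMM5 was left out in turn, it was 0.111, 0.0895, 0.125, 0.128, 0.0679, 0.0648 or 0.107 (edgeR). Without DMM4 it was 0.00201, with a log2 fold change of -0.43.

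Both subunits of the enzyme that starts glutathione synthesis were among the members. Over all 10 libraries Gclc had the smallest adjusted p of the 10 genes, and over the 8 libraries Gclm had it, followed by Gclc. Gclc encodes the catalytic subunit of glutamate-cysteine ligase, the rate-limiting enzyme of glutathione synthesis, and lies on chromosome 9 from 77754535 to 77794485, on the plus strand like each member for which no strand is named. It was at 150.0, 169, 233, 132 and 155 CPM in PBS1 to PBS5 and at 173, 282, 309, 259 and 389 CPM in DMM1 to DMM5. DMM2 to DMM5 were above every PBS kidney, PBS3 included, and DMM1 was above 4 of the 5 PBS kidneys. Means were 168 ± 38.8 CPM with PBS and 282 ± 78.7 CPM with DMM (SD, n = 5 each), for a log2 fold change of 0.75 with a standard error of 0.22 (edgeR, adjusted p = 0.378). That adjusted p was the smallest of any tested gene over the 10 libraries, and it was shared with other genes. When DMM1 alone was left out, Gclc was called higher, with a log2 fold change of 0.88 (edgeR, adjusted p = 0.0286), among 50 genes higher and 436 lower. With the 8 libraries Gclc was at 151 ± 15.5 against 309.9 ± 56.8 CPM (SD, n = 4 each), for a log2 fold change of 1.03 with a standard error of 0.15 (edgeR, adjusted p = 0.00670). It stayed called when any of these 8 libraries was left out, with log2 fold changes between 0.90 and 1.11.

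Gclm encodes the modifier subunit of the same ligase, which raises the activity of the catalytic subunit, and lies on chromosome 3 from 122245557 to 122270732. Its values were 148, 147, 237, 131 and 149 CPM in PBS1 to PBS5 and 144, 236, 251, 277 and 278 CPM in DMM1 to DMM5. Apart from PBS3, the PBS kidneys lay close together with DMM1 among them, and PBS3 was just above DMM2. Means were 162 ± 42.2 CPM with PBS and 237 ± 55.4 CPM with DMM (SD, n = 5 each), for a log2 fold change of 0.55 with a standard error of 0.21 (edgeR, adjusted p = 0.405). Within the 8 libraries it was 144 ± 8.57 against 261 ± 20.8 CPM (SD, n = 4 each), for a log2 fold change of 0.86 with a standard error of 0.11 (edgeR, adjusted p = 0.00300). The call held without any one of the 8 libraries, with log2 fold changes between 0.81 and 0.90. DMM4, which was low for Keap1, Sod1 and Gpx3, was at 1.09 times the mean of DMM2, DMM3 and DMM5 for Gclm.

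Nqo1 encodes a quinone reductase that keeps quinones from redox cycling and is a widely used NRF2 target gene. It lies on chromosome 8 from 107388225 to 107403206 on the minus strand. Its values were 12.1, 11.6, 22.7, 13.0 and 11.6 CPM in PBS1 to PBS5 and 11.7, 24.8, 35.8, 20.2 and 50.1 CPM in DMM1 to DMM5, from 190 to 824 counts. DMM1 and the PBS kidneys other than PBS3 lay within a narrow range, and the 4 other DMM kidneys were higher and spread widely, with PBS3 above DMM4. Means were 14.2 ± 4.77 CPM with PBS and 28.5 ± 14.9 CPM with DMM (SD, n = 5 each), for a log2 fold change of 1.01 with a standard error of 0.35 (edgeR, adjusted p = 0.387). Across the 8 libraries it was 12.1 ± 0.641 against 32.7 ± 13.3 CPM (SD, n = 4 each), for a log2 fold change of 1.44 with a standard error of 0.27 (edgeR, adjusted p = 0.0153). This was the largest fold change of the 10 genes, at 2.71-fold, and its call was the least stable of the 4. It was lost when PBS1, PBS2, PBS4, PBS5 or DMM3 was left out, with an adjusted p of 0.0505, 0.0549, 0.0514, 0.0631 or 0.0507 (edgeR), and log2 fold changes between 1.39 and 1.47.

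Hmox1 encodes heme oxygenase, which breaks heme down to biliverdin, iron and carbon monoxide, and lies on chromosome 8 from 75093621 to 75100589. It was at 35.0, 61.0, 42.4, 85.8 and 43.6 CPM in PBS1 to PBS5 and at 57.0, 64.4, 32.5, 48.7 and 45.7 CPM in DMM1 to DMM5. The groups overlapped widely, and the highest value was in PBS4. Means were 53.6 ± 20.4 CPM with PBS and 49.6 ± 12.1 CPM with DMM (SD, n = 5 each), for a log2 fold change of -0.11 with a standard error of 0.25 (edgeR, adjusted p = 0.871). In the 8 libraries it was -0.24 with a standard error of 0.30 (edgeR, adjusted p = 0.688). The sign turned when PBS4 was left out, to 0.13 over the other 9 libraries and to 0.04 within the 8, and it also turned, to 0.00975, when DMM3 was left out of the 10. Hmox1 is induced through the same response elements as Nqo1, Gclc and Gclm in many cells. Across the 10 libraries its log2 CPM had a Pearson r of -0.33 to Nqo1, -0.34 to Gclc and -0.38 to Gclm (n = 10).

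Txnrd1 encodes the cytosolic thioredoxin reductase, which passes electrons from NADPH to thioredoxin, and lies on chromosome 10 from 82833951 to 82897712. Its values were 168, 177, 175, 206 and 187 CPM in PBS1 to PBS5 and 190.4, 207, 221, 185 and 225 CPM in DMM1 to DMM5. The groups overlapped, with PBS4 and PBS5 among the DMM kidneys. Means were 183 ± 15.0 CPM with PBS and 206 ± 17.6 CPM with DMM (SD, n = 5 each), for a log2 fold change of 0.17 with a standard error of 0.10 (edgeR, adjusted p = 0.536), and over the 8 libraries it was 0.18 (edgeR, adjusted p = 0.414).

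Sod1 and Sod2 encode superoxide dismutases, which turn superoxide into hydrogen peroxide, and of this pair Sod2 was called over the 8 libraries. Sod2, the mitochondrial manganese enzyme, lies on chromosome 17 from 13006846 to 13040063. It was at 86.5, 86.2, 135, 72.6 and 85.4 CPM in PBS1 to PBS5 and at 79.4, 129, 133, 126 and 148 CPM in DMM1 to DMM5. As for Gclm, PBS3 lay among DMM2 to DMM5 and DMM1 among the other PBS kidneys. Means were 93.2 ± 24.2 CPM with PBS and 123 ± 25.8 CPM with DMM (SD, n = 5 each), for a log2 fold change of 0.40 with a standard error of 0.20 (edgeR, adjusted p = 0.488). With the 8 libraries it was 82.7 ± 6.72 against 134 ± 9.71 CPM (SD, n = 4 each), for a log2 fold change of 0.70 with a standard error of 0.11 (edgeR, adjusted p = 0.00820). The call held without any one of the 8 libraries, with log2 fold changes between 0.64 and 0.72.

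Sod1 encodes the cytosolic copper and zinc enzyme and lies on chromosome 16 from 90220754 to 90226329. Its values were 149.6, 134, 199.6, 119 and 119.9 CPM in PBS1 to PBS5 and 130.4, 189, 202, 91.0 and 227 CPM in DMM1 to DMM5. DMM4 was the lowest of all 10 libraries, at 0.442 times the mean of DMM2, DMM3 and DMM5, so that the DMM group spanned the whole PBS range. Means were 144 ± 33.3 CPM with PBS and 168 ± 55.6 CPM with DMM (SD, n = 5 each), for a log2 fold change of 0.22 with a standard error of 0.24 (edgeR, adjusted p = 0.724). Within the 8 libraries it was 130.5 ± 14.4 against 177 ± 59.5 CPM (SD, n = 4 each), for a log2 fold change of 0.44 with a standard error of 0.25 (edgeR, adjusted p = 0.358). When DMM4 was left out of the 8 libraries, Sod1 was called higher, with a log2 fold change of 0.66 (edgeR, adjusted p = 0.00162), in a fit that called 1129 of 16828 tested genes higher, against 452 of 16550 with DMM4. Sod1 overlaps Scaf4 on the opposite strand, which had 9024 counts in all against 26830 for Sod1, and the strand setting of the counting is not given in the sources used here. The overlaps of the other members held at most 159 counts.

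Gpx3 encodes the secreted glutathione peroxidase of plasma and lies on chromosome 11 from 54902453 to 54910377. It was at 3563, 3543, 6627, 2138 and 2861 CPM in PBS1 to PBS5 and at 2627, 7856, 9184, 1846 and 10597 CPM in DMM1 to DMM5. DMM2, DMM3 and DMM5 were above every PBS kidney, and DMM4 was below every PBS kidney, at 0.200 times the mean of those 3 libraries. Means were 3746 ± 1714 CPM with PBS and 6422 ± 3952 CPM with DMM (SD, n = 5 each), for a log2 fold change of 0.78 with a standard error of 0.48 (edgeR, adjusted p = 0.544). Across the 8 libraries it was 3026 ± 676 against 7371 ± 3849.6 CPM (SD, n = 4 each), for a log2 fold change of 1.28 with a standard error of 0.46 (edgeR, adjusted p = 0.139). DESeq2 called Gpx3 higher over the same 8 libraries (adjusted p = 0.0306), and without DMM4 edgeR called it too, with a log2 fold change of 1.61 (adjusted p = 0.000523), in the same fit with 1129 genes called higher. DMM4 was sequenced to the highest total count of the 10 libraries, and its 30557 Gpx3 counts were the fewest of any library.

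Compared per length, the members spanned a wide range of RNA levels. FPKM, the deposited count scaled to gene length and library size, put Gpx3 at rank 7 of all 54532 genes, with a mean level of 2787 FPKM over the 10 libraries. In PBS kidneys the level was 2049.8 ± 934 FPKM for Gpx3, 45.7 ± 1.56 for Nfe2l2, 44.2 ± 10.2 for Gclc, 36.1 ± 8.27 for Sod1 and 30.4 ± 11.6 for Hmox1 (SD, n = 5 each). Below these were Gclm at 25.6 ± 6.62, Txnrd1 at 25.6 ± 2.14, Keap1 at 15.0 ± 1.22, Sod2 at 9.24 ± 2.39 and Nqo1 at 9.07 ± 3.03 FPKM. Within this order the means of Nfe2l2 and Gclc, Gclc and Sod1, Sod1 and Hmox1, Hmox1 and Gclm, Gclm and Txnrd1, and Sod2 and Nqo1 did not differ beyond their spread between mice. That spread leaves out that the genes were read in the same kidneys. Gclc was above Sod1 in every PBS kidney, as at 34.7 against 29.8 FPKM in PBS4, while each of the other pairs changed order between PBS kidneys. In DMM kidneys Gclc, at 74.6 ± 20.8 FPKM, had a higher mean level than Nfe2l2, at 48.7 ± 3.17, and Keap1 had the lowest mean, at 11.5 ± 2.24, which did not differ beyond the spread between mice from Sod2, at 12.2 ± 2.56, and Nqo1, at 18.3 ± 9.54 (SD, n = 5 each). The deposited lengths of Sod2, at 10008 bp, and Txnrd1, at 7086 bp, lower their FPKM relative to the short Nqo1, at 1553 bp.

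The spread between mice of a group also differed among members. The coefficient of variation over all 5 PBS kidneys was 3.50% for Nfe2l2, 8.01% for Keap1 and 8.19% for Txnrd1. It was 38.1% for Hmox1 and 45.7% for Gpx3. In DMM kidneys it was lowest for Nfe2l2, at 6.29%, and highest for Gpx3, at 61.5%. Leaving PBS3 out took that of Gclm in PBS kidneys from 26.0% to 5.96% and that of Nqo1 from 33.6% to 5.31%. It also took that of Gpx3 from 45.7% to 22.3%, below that of Hmox1, which was then 39.8%.

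Across the 10 libraries of both groups, Gclm and Sod2 varied together, with a Pearson r of 0.98 between their log2 CPM values. The r was 0.97 between Sod1 and Gpx3, 0.95 between Nqo1 and Gclc, 0.95 between Gclc and Sod2 and 0.94 between Gclc and Gclm. Sod1 and Gclm, with an r of 0.46, were less alike, and DMM4 was low for Sod1 and high for Gclm. Keap1 ran the other way to some of these genes, with an r of -0.88 to Gclm, -0.80 to Gclc, -0.78 to Sod2 and -0.67 to Nqo1. Its r was weaker to Txnrd1, at -0.33, Gpx3, at -0.23, Sod1, at -0.06, and Hmox1, at 0.12. Nfe2l2 had an r between -0.20 and 0.47 to the other members, and Hmox1 between -0.43 and 0.13. These values describe 10 libraries (n = 10) that share their depth and scaling, and the difference between the groups enters each of them.

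The tested genes most like each member in log2 CPM over the 10 libraries were found in the same way. For Gclc they were Fh1, Ppm1b and Iars2 (r = 0.98, 0.98 and 0.98), and for Gclm they were Gm28437, Cmah and Zfp706 (r = 0.99 each). Nqo1 was most like Fech, Gldc and Dlat (r = 0.98 each), and Sod2 most like Mut, Entpd5 and Pank1 (r = 0.99 each). Gpx3 was most like Suclg1, Gpx4 and Asl (r = 0.99 each), and Sod1 most like Pcbd1, Gpx4-ps2 and Cisd1 (r = 0.99 each). Gpx4-ps2 is a pseudogene that could share reads with Gpx4, so that its values are uncertain. Keap1 was most like Grn, Asap3 and Arrb2 (r = 0.99, 0.99 and 0.98). The nearest genes were less close for Txnrd1, Nfe2l2 and Hmox1. For Txnrd1 they were Map3k6, Mafg and Plpp2 (r = 0.92, 0.91 and 0.91), for Nfe2l2 Chst8, Nos1 and Islr2 (r = 0.91, 0.87 and 0.87), and for Hmox1 Adamtsl3, Hey1 and Aplnr (r = 0.94, 0.87 and 0.87).

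The wider antioxidant network was followed in 7 lists with 110 other genes, of which 107 were tested. Gpx2, Gstm3 and Hpx had at most 16, 1 and 17 counts in any library and were not tested. In the 8 libraries, 7 of the 107 were called higher, 2 lower and 98 neither, beside 2.73% higher and 3.56% lower among all tested genes, with a median log2 fold change of 0.16. In all 10 libraries 0 were called by edgeR, 5 were higher and 4 lower at an unadjusted p under 0.05 and the same fold change, beside 1.91% and 4.11% of all tested genes, and the median was 0.11.

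Besides NRF2 and KEAP1, 12 regulators of the pathway were tested, and 0 were called higher and 1 lower over the 8 libraries, with a median log2 fold change of -0.01. That gene was Trim21, which encodes a ubiquitin ligase and antibody receptor of the cytosol and is also induced by interferon. It was at 53.1 ± 5.96 CPM with PBS and 15.7 ± 2.92 CPM with DMM (SD, n = 4 each), for a log2 fold change of -1.76 (edgeR, adjusted p = 0.000388). With all 10 libraries it was -1.18 (edgeR, adjusted p = 0.378), with 48.9 CPM in DMM1 and 40.3 CPM in PBS3. Mafg, a small MAF partner of NRF2, was at 84.1 ± 2.33 CPM with PBS and 93.8 ± 5.99 CPM with DMM (SD, n = 5 each), for a log2 fold change of 0.16 (edgeR, adjusted p = 0.508).

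Of 26 tested genes of glutathione synthesis and use, 2 were called higher and 0 lower over the 8 libraries, with a median log2 fold change of 0.34. Ggt1, the enzyme of the brush border that starts the breakdown of glutathione outside the cell, had a log2 fold change of 1.23 (edgeR, adjusted p = 0.0233) there and 0.70 (edgeR, adjusted p = 0.512) over all 10 libraries. The glutathione transferase Gsta3 had 1.41 (edgeR, adjusted p = 0.0480) and 0.90 (edgeR, adjusted p = 0.484). Its relatives Gsta1 and Gsta2 had 1.37 and 0.92 over all 10 libraries (edgeR, adjusted p = 0.388 and 0.421). Gsta4, a further relative named after its values were seen, had -0.02 over all 10 and -0.16 over the 8 (edgeR, adjusted p = 0.986 and 0.855). Gsta1 had only 4 to 31 counts a library, and reads of this family could have been split between its members, which makes these values uncertain.

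In the thioredoxin and peroxiredoxin list, 1 of 19 genes was called higher and 0 lower over the 8 libraries, with a median log2 fold change of 0.16. Prdx3, the peroxiredoxin of mitochondria, had a log2 fold change of 0.66 (edgeR, adjusted p = 0.0115) there and 0.42 (edgeR, adjusted p = 0.436) over all 10 libraries. Srxn1, which restores overoxidized peroxiredoxins and is an NRF2 target, was at 61.4 ± 6.16 CPM with PBS and 80.4 ± 9.82 CPM with DMM (SD, n = 5 each), for a log2 fold change of 0.39 (edgeR, adjusted p = 0.378). Its log2 fold change over the 8 libraries was 0.48 (edgeR, adjusted p = 0.0486), under the fold change of a call. Of 9 genes of superoxide and peroxide removal, 1 was called higher and 0 lower over the 8 libraries (median 0.17). This was Cat, the catalase of peroxisomes, with a log2 fold change of 1.05 (edgeR, adjusted p = 0.0285) there and 0.60 (edgeR, adjusted p = 0.513) over all 10. Ucp2, a carrier of the inner mitochondrial membrane, had -0.41 over all 10 libraries (edgeR, adjusted p = 0.538), with 107 CPM in DMM4 and 272 to 369 CPM in the other libraries, and it overlaps Dnajb13 on the opposite strand.

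NADPH, which feeds both glutathione and thioredoxin reduction, was followed by 11 genes, of which 2 were called higher and 0 lower over the 8 libraries (median 0.09). They were the cytosolic enzymes Me1 and Idh1, with log2 fold changes of 0.82 and 0.65 (edgeR, adjusted p = 0.0148 and 0.0162) there and 0.42 and 0.34 (edgeR, adjusted p = 0.550 and 0.542) over all 10. For both, PBS3 was among DMM2 to DMM5 or above them, at 279.6 CPM of Me1 and 286 CPM of Idh1. The mitochondrial NAD kinase Nadk2 stood at 0.35 over all 10 libraries (edgeR, adjusted p = 0.490) and at 0.57 over the 8 (edgeR, adjusted p = 0.0316), short of the fold change of a call. Nnt, with 5 to 45 counts a library, had 1.56 over all 10 (edgeR, adjusted p = 0.378). Of 13 genes of heme and iron handling, 0 were called over the 8 libraries by edgeR, with 1 higher and 1 lower at an unadjusted p under 0.05 and the same fold change (median 0.31), beside 6.45% higher and 7.24% lower among all tested genes at that threshold. Over all 10 libraries the transferrin receptor Tfrc had 0.71 (edgeR, adjusted p = 0.408) and the hemoglobin-binding protein gene Hp -1.71 (edgeR, adjusted p = 0.378). Hp was at 52.9 CPM in PBS4 and at 9.39 to 18.4 CPM in the other PBS kidneys, so that its size rests in part on PBS4.

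Of 17 genes of quinone and carbonyl removal, 1 was called higher and 1 lower over the 8 libraries (median 0.20). Abcc2, an apical pump that exports glutathione conjugates, was at 98.0 ± 25.8 CPM with PBS and 258 ± 42.8 CPM with DMM (SD, n = 4 each), for a log2 fold change of 1.40 (edgeR, adjusted p = 0.00875), and 0.89 (edgeR, adjusted p = 0.415) over all 10 libraries. Akr1b3, aldose reductase, was at 172 ± 15.2 CPM with PBS and 108 ± 7.99 CPM with DMM (SD, n = 4 each), for a log2 fold change of -0.68 (edgeR, adjusted p = 0.00957). PBS3, at 196 CPM, was the highest PBS kidney for this gene too, DMM1, at 158 CPM, lay above PBS5, and over all 10 libraries the log2 fold change was -0.59 (edgeR, adjusted p = 0.378).

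Some lists of cell type markers also differed between the groups over the 8 libraries, and in RNA of whole kidneys fewer cells of a type and less RNA per cell cannot be told apart. The 12 proximal tubule markers summed to 3807, 3802, 9759.7, 1448 and 2833 CPM in PBS1 to PBS5 and to 2871, 7782, 6552, 5675 and 9621 CPM in DMM1 to DMM5. PBS3 lay above DMM2 to DMM5, and DMM1 lay among the other PBS kidneys, as it did for Gclm and Sod2. With the 8 libraries 5 of these 12 markers were called higher and 0 lower, with a median log2 fold change of 1.66, and 0 were called over all 10 by edgeR, with 2 higher and 0 lower at an unadjusted p under 0.05 and the same fold change. Among all tested genes 2.73% were called higher over the 8 libraries, and 1.91% were higher at the unadjusted threshold over all 10. The 9 markers of the loop, distal tubule and collecting duct, led by Umod, summed to 3144, 2620.5, 4355, 1976 and 1728 CPM in PBS1 to PBS5 and to 2717.5, 4212, 4888, 1952 and 5227 CPM in DMM1 to DMM5. Umod made up 73.1% of this sum, for which DMM4 was low with the PBS kidneys. Over the 8 libraries 4 of 8 tested markers were called higher, Slc4a1, Slc12a1, Calb1 and Slc12a3, and DMM4 was above DMM2 for the first 3 of them. These 4 genes were chosen for naming after their values were seen.

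Sums of the fibroblast and the macrophage and monocyte markers had lower means in DMM kidneys. Over all 10 libraries, 2 tested genes of each list had a positive log2 fold change. Over the 8 libraries, 0 fibroblast and 2 macrophage and monocyte markers did. The 8 fibroblast and myofibroblast markers, led by Col3a1, summed to 6642, 9759, 5237, 14386 and 9179 CPM in PBS1 to PBS5 and to 11261, 5327, 3735, 7363 and 4277 CPM in DMM1 to DMM5, and 2 were called lower over the 8 libraries. The 13 macrophage and monocyte markers, led by Lyz2, summed to 2460.3, 2527, 1971, 2281 and 2693 CPM in PBS1 to PBS5 and to 2339, 1670.4, 1342, 1127 and 1375 CPM in DMM1 to DMM5. Of 12 tested, 3 were called lower over the 8 libraries, and Timd4, with at most 17 counts, was not tested. Among all tested genes 3.56% were called lower there. PBS3 was the lowest PBS kidney in both of these lists, as it was for Keap1.

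The 15 interferon response genes, led by Irf7, summed to 5314, 3289.7, 3841, 5275 and 5135 CPM in PBS1 to PBS5 and to 4095, 646, 570.2, 491 and 476 CPM in DMM1 to DMM5, and 15 were called lower over the 8 libraries. The sum in PBS3 lay within the range of the other PBS kidneys, while for 7 of the 15 genes PBS3 was the lowest PBS kidney. Red blood cell markers, led by Hbb-bs, summed to 136, 228, 230.1, 157 and 152 CPM in PBS1 to PBS5 and to 288, 216, 593, 788 and 276 CPM in DMM1 to DMM5. Their 5 genes were not called over the 8 libraries, where 5 were higher at an unadjusted p under 0.05 and the same fold change, beside 6.45% of all tested genes. With all 10 libraries edgeR called 0 genes of the tubule, fibroblast, macrophage, interferon and red blood cell lists. At the unadjusted threshold 0 fibroblast and 0 loop or distal markers passed then, while 6 macrophage markers and 15 interferon response genes were lower and 5 red blood cell genes higher. Of all tested genes, 1.91% were higher and 4.11% lower at that threshold over all 10 libraries, and 3.56% were called lower over the 8.

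The remaining lists were injured tubule, podocyte, endothelial, T and NK cell, and neutrophil markers. Injured tubule markers, led by Spp1, summed to 15235 ± 2217 CPM in PBS and 18218 ± 1988 CPM in DMM kidneys, podocyte markers, led by Podxl, to 698 ± 61.5 and 740.3 ± 151 CPM, and endothelial markers, led by Pecam1, to 566 ± 90.2 and 584 ± 83.2 CPM (SD, n = 5 each). Over the 8 libraries the podocyte sum turned, to 722.6 ± 34.0 CPM in PBS and 708.5 ± 154 CPM in DMM kidneys (SD, n = 4 each). Spp1 made up 85.7% of the injured tubule sum, and over the 8 libraries 3 of these 8 markers had a positive log2 fold change (median -0.03). T and NK cell markers, led by Cd4, summed to 57.7 ± 14.1 and 30.2 ± 13.8 CPM, and neutrophil markers, led by Csf3r, to 44.2 ± 39.6 and 41.4 ± 34.0 CPM (SD, n = 5 each). Both neutrophil means rest largely on 1 library, PBS4 at 114.5 CPM and DMM4 at 101.6 CPM, with the other kidneys at 18.2 to 34.6 CPM. Within the 8 libraries Cd4 was called lower, and 7 of 9 T and NK cell markers were lower at an unadjusted p under 0.05 and a fold change above 1.5, beside 7.24% of all tested genes, with a median log2 fold change of -1.19. Over all 10 libraries 0 of 9 were called by edgeR and 5 were lower at that unadjusted threshold (median -0.95), beside 4.11% of all tested genes. In the 8 libraries none of the tested markers of the other 4 lists was called by edgeR or had an unadjusted p under 0.05 and that fold change. The part of any of these markers, or of the low gene number of DMM4, in the values of the 10 antioxidant genes was not tested.

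**Figure D3:**
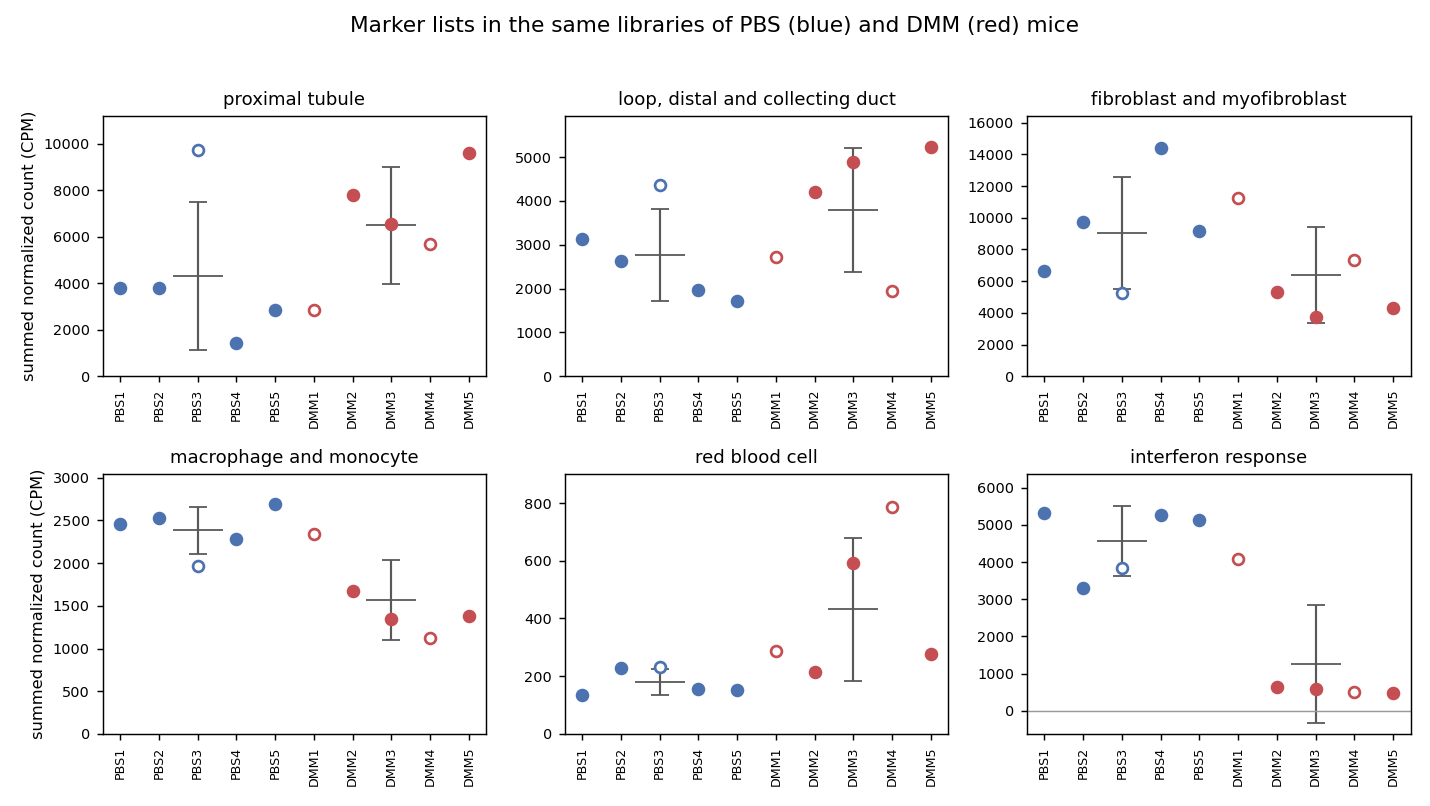
Summed normalized count (CPM with TMM scaling) of 6 marker lists in each library, with PBS kidneys in blue and DMM kidneys in red. Open circles are PBS3, DMM1 and DMM4, and grey bars are the mean and SD of the 5 kidneys of a group. PBS3 is high for proximal tubule markers at 9759.7 CPM, and DMM1 lies with the PBS kidneys for the interferon response at 4095 CPM.

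Sequences are shown because NRF2 is known to act through a short motif at its target genes, and 3 of the 4 members called over the 8 libraries had a promoter to read. RefSeq promoters of the GRCm38.p6 build, the mm10 sequence, were matched by symbol for 8 members, all but Hmox1 and Gclc, from 250 bases before to 50 bases after each annotated start. The core of the antioxidant response element was searched as TGACNNNGC on both strands, with N for any base, and no other motif was searched. It was found in 12.4% of all 32851 promoters, and in at least 1 promoter of 13.99% of 27025 genes, of 4 of the 8 members and of 23 of 93 genes of the 7 lists (24.7%). The windows below give the gene's strand from 5′ to 3′, with the match in capitals.
Gclm, chr3:122245407-122245447: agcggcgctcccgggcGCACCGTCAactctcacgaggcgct
Nfe2l2, chr2:75704879-75704913: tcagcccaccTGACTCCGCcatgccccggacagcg
Txnrd1, chr10:82859098-82859138: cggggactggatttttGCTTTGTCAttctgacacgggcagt
Sod1, chr16:90220690-90220730: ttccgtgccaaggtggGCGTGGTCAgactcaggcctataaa
The match lay on the gene's own strand in Nfe2l2, on the minus strand of the chromosome, and on the opposite strand in Gclm, Txnrd1 and Sod1, whose genes are on the plus strand. It began 134 bases before the annotated start in Gclm, 240 in Nfe2l2, 92 in Txnrd1 and 56 in Sod1. Of 3 annotated Txnrd1 promoters, 1 held it. Gclm was called over the 8 libraries and the other 3 genes were not. The letters were not found in the windows of Nqo1, Sod2, Keap1 and Gpx3, which says only that these 300 bases do not hold them. A match is a description of the sequence, and binding was not measured here.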

How the data were processed

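Bulk RNA-seq of 10 obstructed kidneys, a single library per mouse, was used. The submitters' processing notes name HISAT2 2.0.5, and the reads were aligned to mm10. The authors deposited raw counts per gene. The counting tool, annotation release and strand setting are not given in the sources used here. The deposited FPKM values are these counts over gene length and an effective library size that is not the sum of the counts, and they were used only for levels per length. Group means in the deposited table are a signal on the scale of counts over size factors, used here only to find which libraries they include. Its log2 fold change and its p-value columns, from the authors' DESeq2 comparison, were not used. The number of unused sample columns was 0.

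Genes were kept by filterByExpr, scaled by TMM and tested by edgeR 4.0.16 (R 4.3.3) with a quasi-likelihood F test and Benjamini-Hochberg adjustment over all tested genes. Standard errors were derived from the F statistics. Correlations used log2 CPM with a prior count of 2. The steps were tested on simulated data. Alternatives were DESeq2 1.42.0, scaling by RLE or by library size alone, other filters and thresholds, the replicate number as a block, and each library left out in turn. The methods call the replicates independent, so n counts mice. None of the 20 pairs of libraries within a group agreed within sampling noise. Reads carry no molecular identifiers in the sources used here and are not independent molecules. Total counts were 15722527 to 19475833, and with their TMM factors 3 counts in a library were 0.159 to 0.189 CPM.

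The members and lists were chosen with earlier results of these data known, so that p-values were adjusted over all tested genes and no test was made over a list. The set of 8 libraries was also chosen with earlier results known. The adjustment over genes does not cover that choice, and p-values over the 8 libraries hold only given it. The 2 sets of libraries share 8, so that neither checks the other. Genes to be named were the 10 members, in each of the 7 lists every called gene over the 8 libraries (up to 5) and the 2 of smallest p over all 10, the 3 most correlated genes of each member, and the most abundant gene of each marker list. Genes named beside these because they were not tested were chosen after their values were seen.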

Additional observations from a re-analysis of the deposited data

Results flagged for a closer look

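Among the 20 groups of 5 kidneys (10 genes in PBS and in DMM), 3 held a kidney whose distance to its nearest neighbour was a large share of the group's whole range. All 3 were PBS3 as the highest PBS kidney, with 22.7 CPM for Nqo1, 237 CPM for Gclm and 135 CPM for Sod2. Chance alone marks about 1 in 20 such groups, and the 3 genes come from the same library, so that they are not separate events. The cause of its distance was not tested.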

How the results depend on the processing

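Over all 10 libraries, 0 genes were called higher and 0 lower by edgeR. An unadjusted p under 0.05 and the same fold change gave 315 and 678, with 2 of the 10 antioxidant genes, and DESeq2 gave 9 and 32, with 0 of them. With a library left out in turn, 0 to 50 genes were called higher, 0 to 436 lower and 0 to 1 of the 10 genes, all calls coming without DMM1. Over the 8 libraries, the 452 genes called higher became 1067 at the unadjusted threshold, 276 with library size alone and 769 with DESeq2, and the 590 called lower became 1198 at the unadjusted threshold and 894 with DESeq2. With a library left out in turn, 131 (without PBS5) to 1129 (without DMM4) genes were called higher and 276 (without PBS5) to 1281 (without DMM4) lower.

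With the replicate number as a block (replicate block), 0 genes were called higher, 0 lower and 0 of the 10 antioxidant genes over the 8 libraries by edgeR, with a smallest adjusted p of 0.0514, and 0 and 0 over all 10. Within the 8 libraries, PBS1 and DMM3 had no partner of the same number. The blocked comparison there therefore rested on the pairs numbered 2, 4 and 5 and had little power. The log2 fold changes of the genes that lost their call were about as large. Over the 8 libraries with the block they were 1.01 for Gclc, 0.89 for Gclm, 0.73 for Sod2 and 1.28 for Nqo1. Without the block they were 1.03, 0.86, 0.70 and 1.44. Deviations of same-numbered libraries from their group means correlated at -0.06, 0.08, 0.34, 0.12 and -0.22 for numbers 1 to 5. By these correlations, 3 of 10 libraries were closest to their own number (2 of 6 within the 8). With so few pairs these values cannot decide whether same-numbered libraries were paired. No pairing is described in the sources used here.

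Signs turned for Hmox1 over all 10 libraries without PBS4 (0.126) and without DMM3 (0.00975), with log2 fold changes from -0.230 (without PBS1) to 0.126 when a library was left out. They turned for Hmox1 over the 8 libraries without PBS4 (0.0351), in a range from -0.421 (without DMM2), and for Nfe2l2 over the 8 libraries with library size alone (-0.0268). The causes were not tested. Over the 8 libraries, 72 of 80 log2 fold changes of the 10 genes kept their sign and side of the threshold with a library left out, 5 lost a call and 2 gained one. Under other settings 53 of 60 did, 4 lost a call, all under the block, and 2 gained one. Over all 10 libraries these were 97 of 100, with 1 call gained, and 60 of 60. Every one of the 10 genes had at least 190 counts in each library, the fewest for Nqo1.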
